A study of Mus musculus with 8 samples.

Results

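The cyclic nucleotide phosphodiesterases of the heart were followed in RNA-seq libraries of WT hearts and of hearts with Mettl3 deleted in cardiomyocytes. Mettl3 encodes the methyltransferase that places m6A on RNA. The genes were given as a list of symbols, Pde1a, Pde1c, Pde2a, Pde3a, Pde3b, Pde4b, Pde4d, Pde5a, Pde7a and Pde10a, and matched to the symbol column of the table, where all 10 were found among 23045 genes. There were 4 libraries of WT hearts (genotype Mettl3lox/lox) and 4 of Mettl3 KO hearts (genotype Mettl3lox/lox:alphaMHC-MerCreMerpos). The labels do not say whether each library is a separate heart. Mice of both genotypes carried the loxP-flanked gene and received tamoxifen on 7 consecutive days at an age of 10 to 16 weeks. The methods do not give their age when the hearts were taken. The Mettl3 KO mice alone carried MerCreMer, a tamoxifen-activated Cre recombinase under the αMHC promoter, which is active in cardiomyocytes, so other heart cells keep Mettl3 and no group carried the Cre without the loxP-flanked gene. Effects of the Cre itself and of the deletion therefore cannot be told apart.

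Phosphodiesterases break down cAMP and cGMP, the messengers made by adenylyl and guanylyl cyclases. In heart muscle cAMP activates protein kinase A, which raises calcium release and contraction force, and cGMP activates protein kinase G, which dampens them. The families differ in what they cleave and in what controls them: PDE1 enzymes are stimulated by calcium and calmodulin, PDE2 is stimulated and PDE3 is inhibited by cGMP, PDE4, PDE7 and PDE8 cleave cAMP, PDE5 and PDE9 cleave cGMP, and PDE10 and PDE11 cleave both.

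Mettl3 itself had 105, 133, 118 and 107 normalized read counts in the WT libraries and 74, 68, 69 and 78 in the Mettl3 KO libraries, so every library matched its label. Limma put this difference at -0.67 (log2 of Mettl3 KO minus log2 of WT, SE 0.10, adjusted p = 0.000184), and log2 differences have this direction throughout. The values of a library added up to 2839589 to 2881849 in WT and 2840184 to 2916986 in Mettl3 KO hearts, from 2631904 to 3061257 reads recovered from the spacing of low values. A count of 0 in a library allows up to 3 reads, or a normalized read count of 2.78 to 3.33, and this floor covers counting error only. The 6 cardiomyocyte markers (Myh6, Tnnt2, Actn2, Ttn, Myl2 and Ryr2) summed to 88652 to 94909 in WT and 85930 to 96117 in Mettl3 KO libraries, a sum that Ttn dominates at 67610 to 76105, and none was near 0. Of these 6 markers 1 passed: Ryr2, the calcium release channel, was at 9666 to 10427 in WT and 7975 to 9017 in Mettl3 KO libraries (-0.23, limma adjusted p = 0.000137). Atrial genes set some libraries apart: Myl7, Bmp10 and Sln together summed to 0 to 38 in WT libraries and 33 to 541 in Mettl3 KO libraries, with Mettl3 KO replicate 1 at the level of the WT libraries.

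The DNA form of a preferred m6A motif, GGACT, was counted in coding sequences. The reason is that the enzyme that methylates this kind of motif is encoded by Mettl3, which the study deleted in cardiomyocytes. It was searched on the coding strand only, in the longest coding sequence of each gene (GENCODE M21, build GRCm38). Untranslated regions were not searched, although the study describes m6A as most frequent in the 3' untranslated region. The counts are therefore not the motif content of a whole transcript. Of 14115 tested genes with at least 300 coding bases, 78.0% held GGACT, with a median of 1.09 per kb of coding sequence. Pde1a and Pde1c held 1 each, 0.612 and 0.435 per kb. Pde4b held 3, Pde3a and Pde5a 4 each, Pde3b and Pde4d 2 each, Pde2a and Pde7a 1 each and Pde10a 0. One GGACT per gene is shown with 10 bases on either side, the last whose window lay within a single exon and the coding sequence. Windows are given for the PDE1 pair, whose ratio did not overlap between the genotypes, and for Pde3a, the highest member. The 3 further phosphodiesterase genes that passed the test are also shown. Capitals mark the motif, and a match is a description of the sequence and not a methylated site.
Pde1a: ctctcctgacGGACTcaacagagaa
Pde1c: aaagccacttGGACTgaggtggtgc
Pde3a: tgactctgcgGGACTcatgccagga
Pde4a: taccgacaatGGACTgatcgcatca
Pde8a: gtactggaaaGGACTggatgagaag
Pde8b: aggaaagctgGGACTtcaacatctt
Each window lies within a coding exon. On GRCm38 they are at chr2:79865685-79865709 (minus strand, exon 12 of 15), chr6:56137384-56137408 (minus, exon 15 of 19), chr6:141492254-141492278 (plus, exon 15 of 16), chr9:21206205-21206229 (plus, exon 14 of 15), chr7:81333465-81333489 (plus, exon 22 of 22) and chr13:95042927-95042951 (minus, exon 15 of 21), in the order above. These positions are not on the build of the count table, which is mm39.

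The levels of the members were compared in WT hearts first, as normalized read counts per kb of exon. Pde3a was the highest with 106 ± 7.36 per kb (SD, n = 4), followed by Pde1c with 56.2 ± 3.18. Pde4d (45.5 ± 1.80) and Pde7a (44.4 ± 8.46) came next, then Pde4b with 33.05 ± 3.97. Pde1a had 19.9 ± 1.65, Pde3b 14.2 ± 1.47 and Pde5a 8.85 ± 1.33. Pde10a (4.32 ± 0.345) and Pde2a (4.07 ± 0.664) were lowest. The ranges over the WT libraries of Pde4d and Pde7a overlapped, as did those of Pde7a and Pde4b and of Pde10a and Pde2a, and all other neighbours in this order were separate. Lengths are the union of annotated exons of all isoforms, and long unused exons lower the value of a gene. Pde3a took 29.8% to 32.8% of the summed per kb level of the 10 members in WT libraries and 30.5% to 32.0% in Mettl3 KO libraries. Of the 10 members, Pde1a was the 1 whose share did not overlap, with 5.41% to 6.90% in WT and 7.13% to 7.88% in Mettl3 KO libraries. Read counts did not overlap between the genotypes in 11.5% of all tested genes, so 1 in 10 is near the background.

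**Figure D1:**
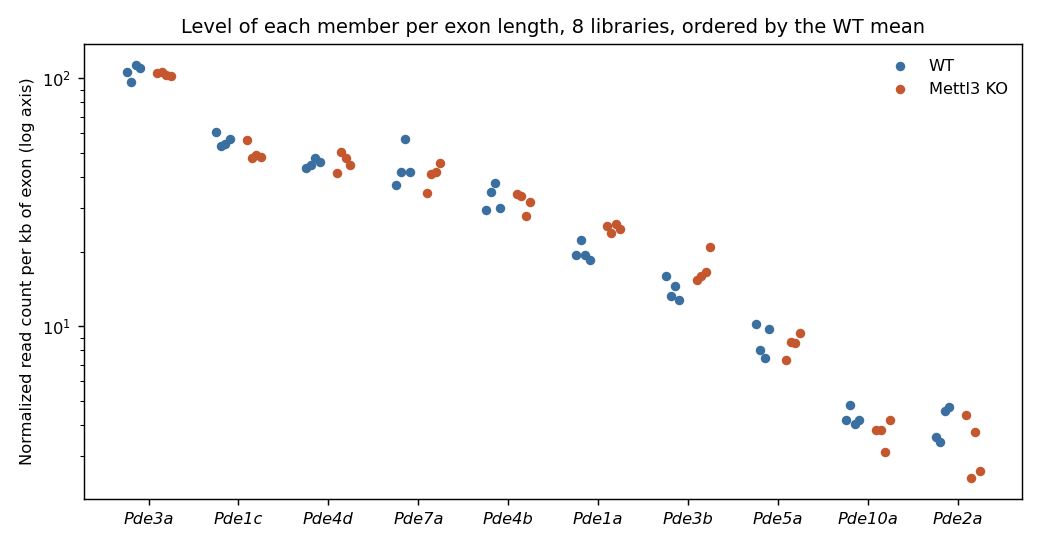
Normalized read count per kb of exon (log axis) of each member in each of the 4 WT (blue) and 4 Mettl3 KO (orange) libraries, ordered by the WT mean. Pde3a is at the top near 106 and Pde2a at the bottom near 4.07, and only the points of Pde1a are separate between the genotypes.

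The comparison of WT with Mettl3 KO hearts asks which phosphodiesterase transcripts change once Mettl3 is deleted in cardiomyocytes. Of the 10 members, all of which passed the filter on low values, 1 rose (Pde1a), 0 fell and 9 did not pass at an adjusted p of 0.05. Over all 20313 genes tested 7.91% passed, 4.72% higher and 3.19% lower in Mettl3 KO hearts, so 1 in 10 is near the background. Among the 11742 genes at or above the mean of the lowest member, Pde2a, 12.1% passed. The median log2 difference of the members was -0.055, beside -0.0086 over all genes, with 3 values above 0 and 7 below. The median of the absolute values was 0.14, beside 0.17 over all genes and 0.11 over those 11742 genes, so it was below the former and above the latter. The spread within a group may be biological or technical, since nothing in the labels describes the replicates beyond their number.

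**Figure D2:**
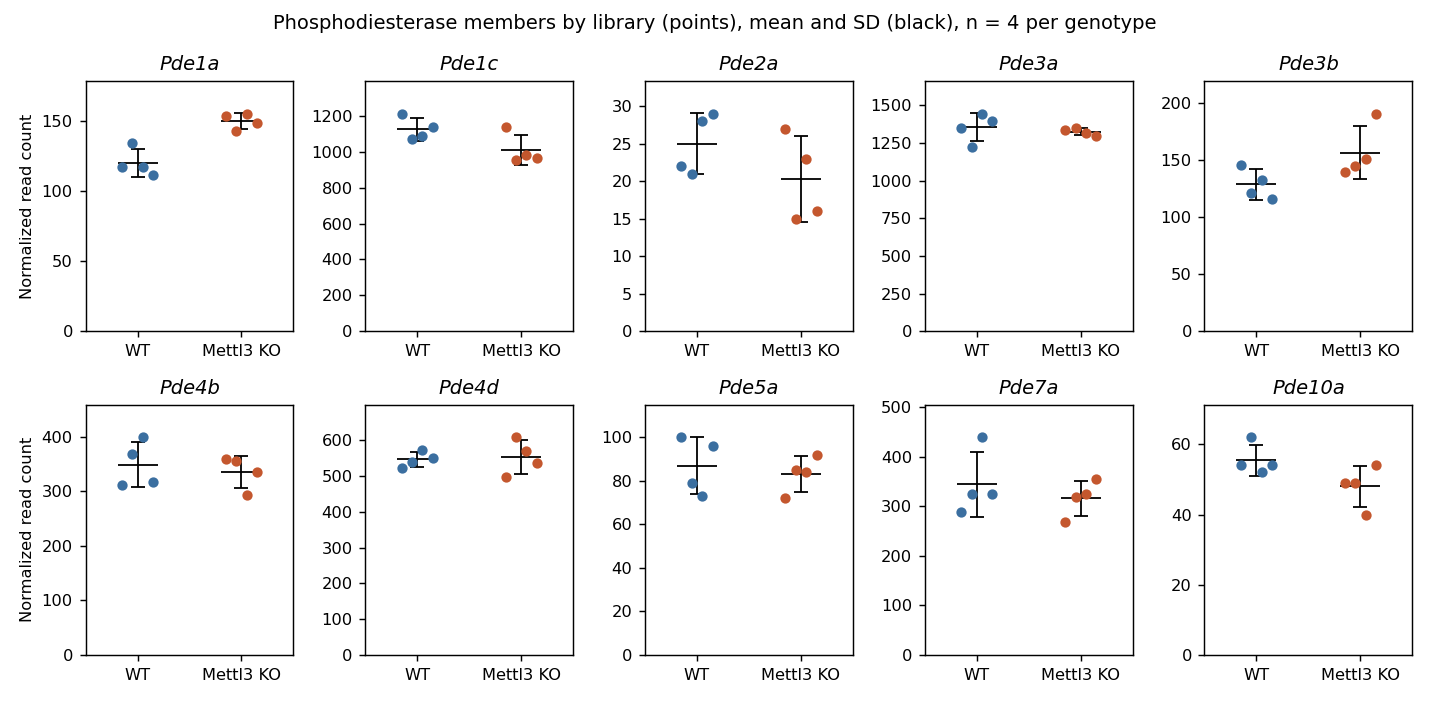
Normalized read counts of the 10 members in each library, with the mean and SD (black, n = 4 per genotype), each axis starting at 0. For Pde1a the 4 Mettl3 KO libraries, at 143 to 155, lie above the 4 WT libraries, at 111 to 134, and for the other 9 members the groups overlap.

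The calcium-stimulated enzymes were the members whose values moved furthest relative to their error. Pde1a (ENSMUSG00000059173, mm39 chromosome 2, 79664797 to 79959802, minus strand), which cleaves cGMP with higher affinity than cAMP, had 117, 134, 117 and 111 normalized read counts in the WT libraries and 153, 143, 155 and 148 in the Mettl3 KO libraries. Every Mettl3 KO library was above every WT library. Such separation was seen in 11.5% of all tested genes. The means were 119.8 ± 9.91 and 149.8 ± 5.38 (SD, n = 4), so that Pde1a rose by 25.1%. Limma put the log2 difference at 0.32 (SE 0.083, 95% interval 0.15 to 0.50, adjusted p = 0.0175). The call was lost without WT replicate 4 (0.29, limma adjusted p = 0.0602), without Mettl3 KO replicate 3 (0.31, limma adjusted p = 0.0647) and with an index of atrial genes as covariate (0.34, limma adjusted p = 0.181), while over all 18 alternatives the change stayed between 0.29 and 0.38.

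Fibroblast markers moved with Pde1a. The 6 markers (Col1a1, Col1a2, Dcn, Pdgfra, Lum and Tcf21) summed to 2396 to 2678 in WT and 3064 to 3393 in Mettl3 KO libraries, all 6 had a difference above 0, 5 of them passed in limma (not Tcf21), and the median was 0.36. The smooth muscle and pericyte markers (Acta2, Myh11, Tagln, Cnn1, Rgs5 and Pdgfrb) summed to 2265 to 2471 in WT and 2208 to 2472 in Mettl3 KO libraries, a sum that Rgs5 dominates at 1330 to 1561, and 0 of 6 passed in limma. Their median log2 difference was 0.16, with Acta2 (0.14), Myh11 (0.17), Tagln (0.41) and Cnn1 (0.68) above 0 and Rgs5 (-0.087) and Pdgfrb (-0.084) below, and Myh11 and Tagln had an unadjusted p under 0.05. None of these markers was listed at 0 in any library, and the lowest was Cnn1 at 2 to 9. The part of the fibroblast and smooth muscle markers in the change of Pde1a was not tested, and in whole hearts a change in the number of cells of a type and a change in RNA per cell cannot be told apart.

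Pde1c (ENSMUSG00000004347, mm39 chromosome 6, 56046789 to 56629472, minus strand), the PDE1 enzyme known from heart muscle cells, had 1213, 1071, 1087 and 1137 normalized read counts in WT against 1136, 957, 981 and 965 in Mettl3 KO libraries. Of the Mettl3 KO libraries, 3 lay below all WT libraries and replicate 1 lay among them. Limma put the difference at -0.16 (SE 0.053, 95% interval -0.27 to -0.051, adjusted p = 0.0664), which did not pass. It passed in 5 of 18 alternatives, among them without Mettl3 KO replicate 1 (-0.22, limma adjusted p = 0.00338) and with the replicate number as a block (-0.16, limma adjusted p = 0.0314), and with the atrial index it was -0.047 (limma adjusted p = 0.822).

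Within each library, Pde1a counts came to 9.65%, 12.5%, 10.8% and 9.76% of Pde1c counts in WT hearts and to 13.5%, 14.9%, 15.8% and 15.3% in Mettl3 KO hearts. The groups did not overlap. The log2 ratio averaged -3.23 ± 0.17 for WT and -2.74 ± 0.10 for Mettl3 KO (SD, n = 4), a difference of 0.48 (SE 0.10, exact permutation p = 0.0286, two-sided), which is the smallest p that 4 against 4 libraries allow. Adjusted over the 3 ratios tested, the exact p was 0.0857 and did not pass, and a lone ratio at the smallest p cannot go lower.

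The PDE3 enzymes, inhibited by cGMP and the targets of the drug milrinone, were led by Pde3a (ENSMUSG00000041741, mm39 chromosome 6, 141194995 to 141453174, on the plus strand). Pde3a had 1350, 1226, 1445 and 1395 normalized read counts in WT against 1338, 1348, 1317 and 1296 in Mettl3 KO libraries. The Mettl3 KO values lay inside the WT range. Limma put the difference at -0.029 (SE 0.045, adjusted p = 0.797), and its 95% interval, the narrowest among the members, ran from -8.11% to 4.53%.

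Pde3b (ENSMUSG00000030671, mm39 chromosome 7, 114014516 to 114138486, on the plus strand), best known from fat and liver, where it takes part in the response to insulin, had 146, 121, 133 and 116 in WT against 140, 145, 151 and 191 in Mettl3 KO libraries. Mettl3 KO replicate 4 was the highest, and the groups overlapped. The log2 difference of 0.27 (SE 0.099, 95% interval 0.068 to 0.48) had an unadjusted p under 0.05 but did not pass over all genes (limma adjusted p = 0.0999), nor in any of 18 alternatives (limma adjusted p = 0.0557 to 0.795). The Pde3b difference rested in part on Mettl3 KO replicate 4, without which it was 0.18 (limma adjusted p = 0.347), and with the atrial index it was 0.10 (limma adjusted p = 0.795). Of the fat cell markers, Adipoq and Plin1 were at 0 to 4 and Cidec at 0 to 3 in all libraries, and Fabp4, which endothelial cells also make, was lower at 464 to 644 over all libraries (-0.22, limma adjusted p = 0.0363). Plin1 (0, 3, 1 and 1 in WT against 3, 4, 4 and 3 in Mettl3 KO libraries, 1.16) and Adipoq (0.48) had differences above 0 that did not pass in limma, the former with an unadjusted p under 0.05, and the median of the 3 tested fat cell markers was 0.48. Their part in the values of Pde3b was not tested. The log2 ratio of Pde3a to Pde3b counts was 3.39 ± 0.16 for WT and 3.08 ± 0.22 for Mettl3 KO (SD, n = 4), a difference of -0.30 (SE 0.14) that did not pass (exact permutation p = 0.0857, adjusted over 3 ratios 0.129) and was -0.19 without Mettl3 KO replicate 4.

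The PDE4 enzymes cleave cAMP only and are inhibited by rolipram, and PDE4D is known as a partner of the ryanodine receptor. Pde4d (ENSMUSG00000021699, mm39 chromosome 13, 108586482 to 110089995, on the plus strand) had 523, 538, 574 and 551 normalized read counts in WT against 496, 608, 571 and 537 in Mettl3 KO libraries. The Mettl3 KO values spread on both sides of the WT values. Limma put the difference at 0.014 (SE 0.058, adjusted p = 0.937), with a 95% interval of -7.09% to 9.71%.

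Pde4b (ENSMUSG00000028525, mm39 chromosome 4, 101944740 to 102464456, on the plus strand) had 311, 368, 399 and 318 in WT against 359, 355, 293 and 335 in Mettl3 KO libraries, with wide overlap. The difference was -0.054 by limma (SE 0.078, adjusted p = 0.779), with an interval from -13.9% to 7.77%. The log2 ratio of Pde4b to Pde4d was -0.65 ± 0.14 for WT and -0.72 ± 0.21 for Mettl3 KO (SD, n = 4, exact permutation p = 0.629), and its difference of -0.067 (SE 0.12) turned to 0.013 without Mettl3 KO replicate 3.

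**Figure D3:**
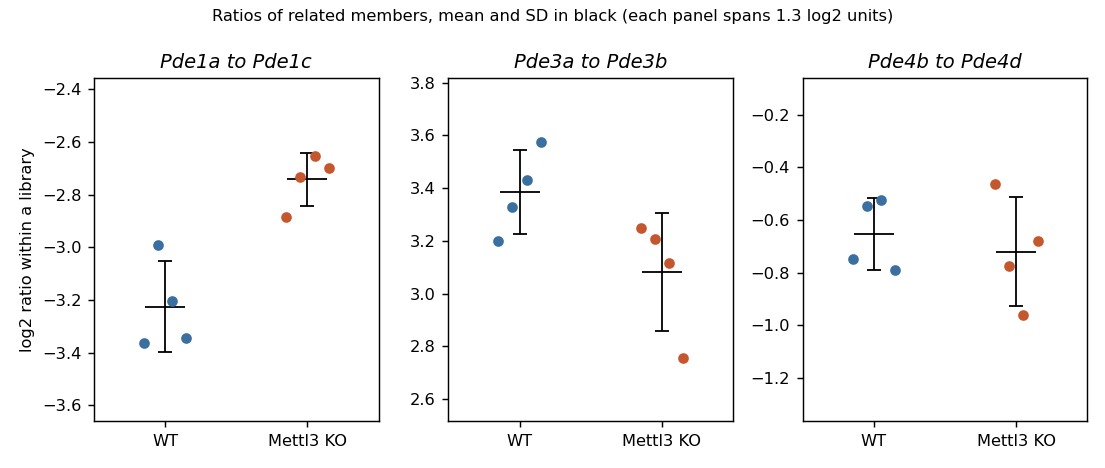
Log2 ratio of the normalized read counts of related members within each library, with the mean and SD (black, n = 4), on axes of equal span that do not start at 0. The ratio of Pde1a to Pde1c is higher in every Mettl3 KO library (-2.88 to -2.65) than in every WT library (-3.36 to -2.99), and the other ratios overlap.

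Of the remaining members, Pde7a (ENSMUSG00000069094, mm39 chromosome 3, 19277272 to 19365486, minus strand), a high affinity cAMP enzyme, had 288, 325, 439 and 325 in WT against 268, 319, 324 and 354 in Mettl3 KO libraries. WT replicate 3 was the highest of the 8. Limma put the difference at -0.11 (SE 0.097, adjusted p = 0.590), and without that library it was 0.012 (limma adjusted p = 0.965).

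Pde5a (ENSMUSG00000053965, mm39 chromosome 3, 122522596 to 122653023, on the plus strand), the cGMP enzyme blocked by sildenafil, had 100, 79, 73 and 96 in WT against 72, 85, 84 and 92 in Mettl3 KO libraries. The groups shared nearly the same range, and limma put the difference at -0.056 (SE 0.12, adjusted p = 0.858). With the atrial index it was -0.39 (limma adjusted p = 0.220), and with a library left out it lay between -0.14 and 0.014.

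Pde10a (ENSMUSG00000023868, mm39 chromosome 17, 8744204 to 9205480, on the plus strand), an enzyme of both messengers best known from the striatum of the brain, had 54, 62, 52 and 54 in WT against 49, 49, 40 and 54 in Mettl3 KO libraries. Only the highest Mettl3 KO value reached the WT range, and the limma difference was -0.21 (SE 0.13, adjusted p = 0.416). Pde2a (ENSMUSG00000110195, mm39 chromosome 7, 101070898 to 101162034, on the plus strand), stimulated by cGMP, had 22, 21, 28 and 29 in WT against 27, 15, 23 and 16 in Mettl3 KO libraries. It was the lowest member by read count, and its interval was the widest, from -41.6% to 10.4% around a limma difference of -0.32 (SE 0.22, adjusted p = 0.472). Without Mettl3 KO replicate 2 the Pde2a difference was -0.19 (limma adjusted p = 0.728) and with the atrial index it was 0.20 (limma adjusted p = 0.830). The Pde10a difference was -0.13 when Mettl3 KO replicate 3 was left out (limma adjusted p = 0.703). For 6 of the 10 members the 95% interval lay within 25% of no change in either direction, namely Pde1c, Pde3a, Pde4b, Pde4d, Pde5a and Pde7a.

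**Figure D4:**
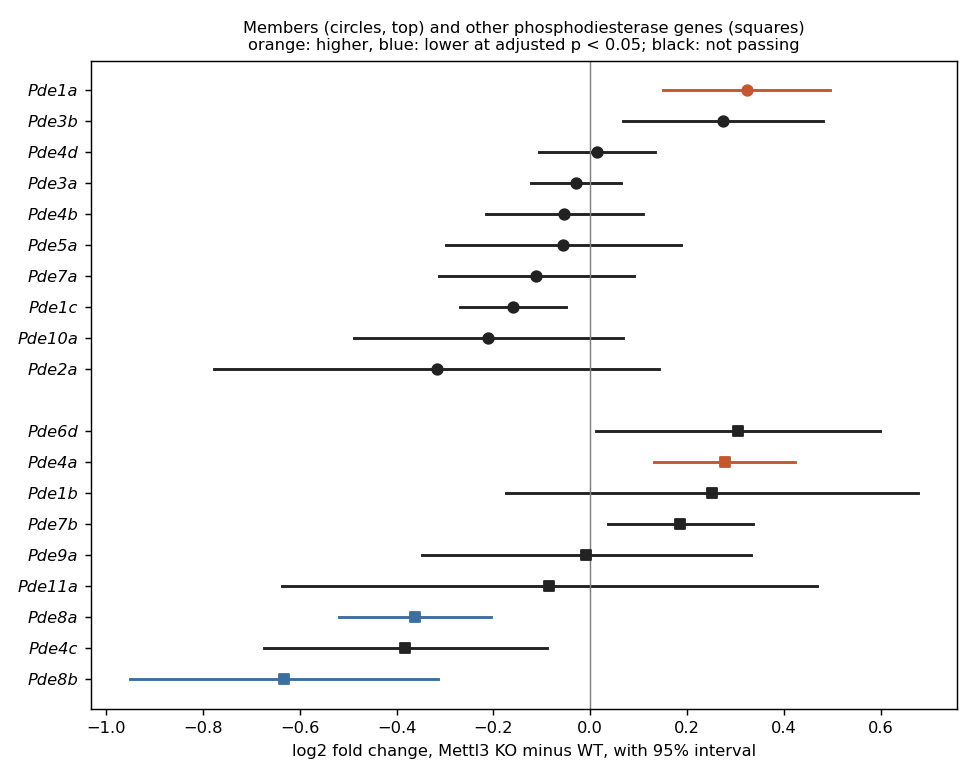
Log2 fold change (Mettl3 KO minus WT) with its 95% interval for the members (circles) and the other phosphodiesterase genes with a mean of at least 10 normalized read counts (squares). The interval of Pde1a is 0.15 to 0.50, and Pde4a, Pde8a and Pde8b are the coloured squares, which passed the test.

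Gene overlap could shift counts, since reads over several genes had been left out. In the table, 8 genes overlapped 5 of the members (Pde1c, Pde3a, Pde4d, Pde7a and Pde10a), 5 on the same and 3 on the opposite strand. The largest was Gm10400 within Pde3a, at 95 to 130 in all libraries. Of the 8 genes 5 were tested and 0 of these passed in limma, and Gm55439, Gm16093 and Gm17087 were below the filter on low values. No listed gene overlapped Pde1a. In RefSeq promoters of 300 bases (GRCm38.p6), 7 of the members had 20 entries. The cAMP response element TGACGTCA was in 0 of them, beside 1.79% of 32851 promoters, and its shorter form TGACG, searched on both strands and contained in the longer one, was in 3 of them (Pde1a, Pde2a and Pde4b), beside 20.8% of all.

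The other phosphodiesterase genes, so called by their symbol whether or not the product itself cleaves cAMP or cGMP, were read out from a list of 14. Of these, 12 were listed and 11 tested, and 1 rose and 2 fell. These 3 are 27.3% of the 11, beside 7.91% of all genes and 12.1% of the genes at or above the mean of Pde2a. Of the 11, Pde6g, Pde6h and Pde11a had means below that of Pde2a, so the 12.1% leaves out genes at their level. The 3 that passed also had groups that did not overlap, beside 11.5% of all genes. Pde8a and Pde8b, high affinity cAMP enzymes that the inhibitor IBMX does not block, were both lower. Pde8a (ENSMUSG00000025584) had 210, 189, 202 and 192 in WT against 167, 158, 141 and 151 in Mettl3 KO libraries, and fell by 0.36 in log2 units (SE 0.076, limma adjusted p = 0.00348). Pde8b (ENSMUSG00000021684) had 59, 50, 80 and 50 in WT against 38, 38, 35 and 39 in Mettl3 KO libraries, and fell by 0.63 (SE 0.15, limma adjusted p = 0.0115). In both genes every Mettl3 KO library was below every WT library. With the atrial index neither passed (-0.26, limma adjusted p = 0.257, and -0.40, limma adjusted p = 0.421), and Pde8b was lost when WT replicate 3 was left out (-0.48, limma adjusted p = 0.0578).

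Pde4a (ENSMUSG00000032177), a cAMP enzyme of the same family as Pde4b and Pde4d, had 319, 340, 329 and 284 in WT against 426, 346, 407 and 366 in Mettl3 KO libraries. The groups did not overlap, and Pde4a rose by 0.28 (SE 0.070, limma adjusted p = 0.0150), a call lost without WT replicate 4 (0.22, limma adjusted p = 0.0731) or Mettl3 KO replicate 3 (0.25, limma adjusted p = 0.0782). With the atrial index Pde4a passed at 0.43 (limma adjusted p = 0.0124). Whether Pde4a changed more than Pde4b or Pde4d was not tested, nor was the part of the fibroblast markers, which were higher in the same libraries with a median of 0.36.

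The other 8 did not pass. Pde4c had a log2 fold change of -0.38, Pde7b of 0.19, Pde6d of 0.31, Pde1b of 0.25, Pde11a of -0.084 and Pde9a of -0.0078, while Pde6g and Pde6h (0.20 and -0.27) were at 1 to 6 in every library, near the floor of 3 reads. Pde7b passed in 1 of 18 alternatives, without WT replicate 3 (0.25, limma adjusted p = 0.0299), and was at 0.33 with the atrial index (limma adjusted p = 0.0775). Pde1b ranged from 0.10 without WT replicate 1 to 0.41 without WT replicate 4, and Pde4c was at -0.25 with the atrial index. Pde6a, at 0 to 3, was not tested, and Pde6b and Pde6c were not analysed here. Endothelial markers (Pecam1, Cdh5, Kdr, Tie1, Egfl7 and Emcn) summed to 3703 to 3907 in WT and 3204 to 3500 in Mettl3 KO libraries, all 6 had a difference below 0 with a median of -0.20, 3 of them passed in limma, and their part in the lower values of Pde8a and Pde8b was not tested.

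Around the phosphodiesterases, 62 genes of cyclic nucleotide signalling in 7 lists were all tested, and 4 were higher and 2 lower, or 9.68%, beside the 7.91% of all genes. Their median log2 difference was 0.02. Of 14 genes of cAMP synthesis 1 rose, the adenylyl cyclase Adcy5, at 523 ± 15.8 in WT against 601 ± 41.0 in Mettl3 KO hearts (SD, n = 4, a limma difference of 0.20, SE 0.053, adjusted p = 0.0232), and the other main cardiac cyclase, Adcy6, was at -0.12 (limma adjusted p = 0.181). Adcy5 was lost in 6 of 8 fits that left out a library, those without WT replicate 1, 2 or 4 or Mettl3 KO replicate 1, 2 or 3 (limma adjusted p = 0.0551 to 0.102), and with the atrial index it passed at 0.32 (limma adjusted p = 0.0152).

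Of 8 genes of cGMP synthesis, 1 was higher and 1 lower, both close to the threshold, and they passed in 5 and 6 of 18 alternatives. Gucy1a1, a subunit of the soluble guanylyl cyclase, changed by 0.24 (SE 0.073, limma adjusted p = 0.0464), and Nos2, an enzyme that makes nitric oxide, by -0.42 (SE 0.13, limma adjusted p = 0.0495). Leaving out a library lost Gucy1a1 in all but the fit without Mettl3 KO replicate 1 (limma adjusted p = 0.0559 to 0.192 in the other 7) and Nos2 in all but the fit without Mettl3 KO replicate 3 (0.0633 to 0.137). Gucy1a1 was also lost with both rescalings, both voom fits and the replicate block (limma adjusted p = 0.0568 to 0.0961), and Nos2 with both other pseudocounts, both voom fits and the block (0.0501 to 0.0806). With the atrial index Gucy1a1 was at 0.035 (limma adjusted p = 0.913) and Nos2 at -0.72, which passed (limma adjusted p = 0.0284).

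Among effectors, Popdc3, of a family of cAMP-binding membrane proteins, had 51, 57, 63 and 41 in WT against 108, 95, 94 and 89 in Mettl3 KO libraries. Its groups were far apart, and it rose by 0.87 (SE 0.13, limma adjusted p = 0.000116). Its relatives Bves (-0.19, limma adjusted p = 0.0933) and Popdc2 (0.13, limma adjusted p = 0.102) did not pass, nor did the other 11 cAMP effectors, among them the catalytic subunits of protein kinase A, Prkaca (-0.064) and Prkacb (-0.014).

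Prkg1, a protein kinase G best known from smooth muscle, had 184, 209, 224 and 207 in WT against 286, 257, 284 and 306 in Mettl3 KO libraries, and rose by 0.46 (SE 0.073, limma adjusted p = 0.000255). It was the 1 of 4 cGMP effectors that passed, and the part of the fibroblast markers (median 0.36) and the smooth muscle markers (median 0.16) in its rise was not tested. Of 12 anchoring proteins, which hold protein kinase A and phosphodiesterases in place, 1 passed. Akap5, the anchor of adenylyl cyclase and calcium channel complexes, had 100, 100, 73 and 93 in WT against 57, 64, 45 and 54 in Mettl3 KO libraries, and fell by 0.72 (SE 0.13, limma adjusted p = 0.000879). Akap6, which anchors PDE4D in heart muscle, was at 0.072 (limma adjusted p = 0.264), and Pde4dip, which binds PDE4D, at 0.095 (limma adjusted p = 0.0651). Popdc3, Prkg1 and Akap5 passed in all 18 alternatives. Of 8 CREB family genes and 2 exporters 0 passed in limma, with 1 of these 10 at an unadjusted p under 0.05 (Abcc4, -0.25).

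**Figure D5:**
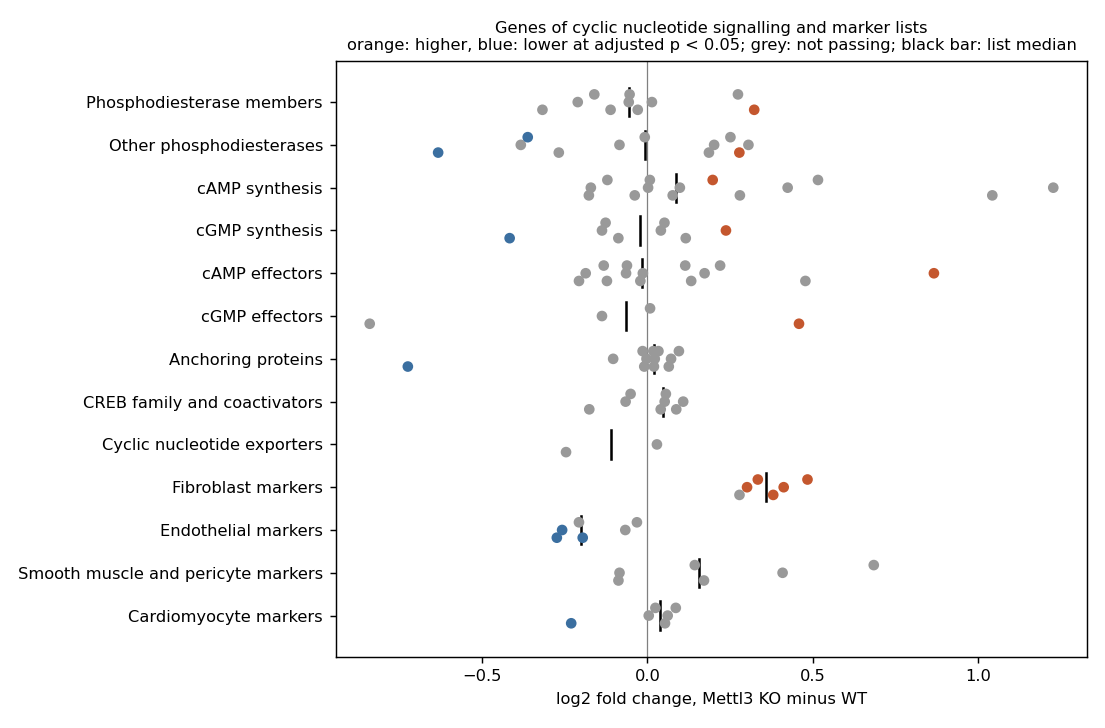
Log2 fold change (Mettl3 KO minus WT) of each tested gene in the lists of cyclic nucleotide signalling and of cell type markers, with the list median as a black bar. The members centre on -0.055 with Pde1a at 0.32, and the fibroblast markers centre on 0.36.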

How the data were processed

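RNA-seq covered total RNA of mouse hearts in 8 libraries (stranded, single-end). According to the methods, reads were trimmed by the authors with Trimmomatic 0.39, aligned to mm39 (STAR 2.7.11a), rid of duplicates (Picard 3.1.1) and of multi-mapping, ribosomal and mitochondrial reads, counted over exons by strand (featureCounts 2.0.4) and normalized (DESeq2 1.36.0). The deposited values are a score, normalized counts rounded to whole numbers, and not raw counts, so no count model was used. Leaving out multi-mapping reads can lower genes with near-identical copies.

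Of the genes, 20313 had a mean of 1 or more and were kept, and 2732 were not tested. Limma 3.58.1 (R 4.3.3) compared the genotypes on log2(value + 1), with no other term and a trended variance, and Benjamini-Hochberg adjustment ran over all genes kept (two-sided). This scale understates changes of low genes. In a simulation, 200 genes were given a log2 difference of 1. The fit found 62.5% of these, and 95.7% among the 117 whose mean was 20 or more. It made 126 calls, and 0.794% of them were wrong. Differences of the members ran from 0.014 to 0.32 in absolute value, below the simulated 1. These rates therefore do not tell how often a change of the members' size would pass. Reads per library were recovered by maximum likelihood from skipped or crowded values. Ratios were compared by exact permutation. Named were all members, the other phosphodiesterases and the pathway genes that passed. Adcy6, Bves, Popdc2, Prkaca, Prkacb, Akap6, Pde4dip and Abcc4 fall outside this rule and were named after their values were seen. Members and lists were chosen with earlier results of these data known. Alternatives were other pseudocounts, filters and scalings, voom, the replicate number as a block, an index of atrial genes (Myl7, Bmp10 and Sln) and each library left out.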

Additional observations from a re-analysis of the deposited data

Results flagged for a closer look

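For the 50 genes whose own values are given singly (the members, the other phosphodiesterases, Mettl3, Gm10400, the named pathway genes, and of the marker genes Ryr2, Ttn, the smooth muscle and the fat cell markers), each library was compared with the other 3 of its genotype. The measure was the distance from the highest or lowest library to its neighbour, as a share of the range of the 4. It exceeded Dixon's critical value in 5 of 100 groups, where chance gives about 1 in 20, or 5. Pde1c in Mettl3 KO hearts had a share of 0.866, with replicate 1 at 1136 against 957 to 981. Pde9a in Mettl3 KO hearts had a share of 0.867, with replicate 1 at 51 against 36 to 38. Bves in Mettl3 KO hearts had a share of 0.87, with replicate 3 at 221 against 198 to 201. Ryr2 in WT hearts had a share of 0.915, with replicate 3 at 10427 against 9666 to 9731. Pde6a in Mettl3 KO hearts had a share of 1, with replicate 4 at 1 against 0 in the others. Mettl3 KO replicate 1 was also the Mettl3 KO library with the lowest atrial gene index, 2.68 against 6.24 to 7.14 in the others and 0 to 2.82 in WT libraries, and the part of this in Pde1c and Pde9a was not tested.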

How the results depend on the processing

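Over all genes, 1607 passed, and 1019 to 1596 did when a library was left out (1019 without Mettl3 KO replicate 3). With the atrial index 903 passed, 590 of them shared. Of the members, 1 passed, 0 to 2 did when a library was left out (0 without WT replicate 4 or Mettl3 KO replicate 3), 2 did with libraries rescaled to the same total, with voom on the deposited values, with voom on recovered reads and with the replicate block (Pde1c in addition to Pde1a), and 0 did with the atrial index. Of the other phosphodiesterases and pathway genes 9 passed, and 5 to 9 did when a library was left out (5 without WT replicate 4). Same-numbered libraries deviated together little (correlations of -0.041 to 0.088 over the 4 numbers), and 2 of 4 WT libraries correlated best with their own number. The labels do not say whether the numbers pair the samples, and these correlations cannot decide it. With the block 1346 genes passed. For the ratios the difference within numbers is that between groups (0.48, -0.30 and -0.067), and 4 pairs cannot give an exact sign-flip p under 0.125.

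Among genes that did not pass, some directions turned. With the atrial index Pde2a was at 0.20, Pde3a at 0.042, Pde4b at 0.14, Pde4d at -0.056, Pde6g at -0.74, Pde6h at 0.072 and Pde9a at 0.17. When a library was left out, Pde3a ranged from -0.076 to 0.0032, Pde4b from -0.11 to 0.013, Pde4d from -0.033 to 0.065, Pde5a from -0.14 to 0.014, Pde7a from -0.19 to 0.012, Pde6g from -0.091 to 0.51, Pde6h from -0.49 to 0.058, Pde9a from -0.12 to 0.084, Pde11a from -0.32 to 0.093 and the ratio of Pde4b to Pde4d from -0.15 to 0.013. The cause of these moves was not tested. The index differs between the genotypes, so this fit cannot separate them fully. Pde6g and Pde6h, at 1 to 6 normalized read counts, had SEs of 0.47 and 0.44, and Pde2a, at 15 to 29, of 0.22, and the part of depth in these errors was not tested.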
